A study of Mus musculus with 14 samples.

Results

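The comparison set left ventricles of Hspb8 knockout mice against those of wild-type mice in basal hearts, that is, hearts that had not been put under pressure overload. It asked what deletion of Hspb8 alone does to the ventricular transcriptome. All mice were male and of the C57BL/6 strain, and the genotypes are labelled Hsp22 WT and Hsp22 KO, Hsp22 being the protein that Hspb8 encodes. The comparison used 6 of the 14 arrays of the series, 3 basal wild type (WT) and 3 basal knockout (KO), chosen by sample title. The other arrays, 4 WT and 4 KO, were taken 3 days after transverse aortic constriction (TAC, a surgical narrowing of the aorta). They served for the same contrast in other samples, for the estimate of spread and in the choice of probe sets. The sources used here do not give the age of the mice, the hour at which hearts were taken or the part of Hspb8 that was removed. The labels do not state that the arrays of a group are different animals, and p-values cover the spread between these samples, which may be technical.

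Each array (Affymetrix Mouse430_2) measured total RNA of one left ventricle sample with 45037 probe sets other than controls, and values are log2 expression values, so that a difference of 1 is a 2-fold change. A probe set was kept if it read above 5.75 (the median over all values) in 3 or more arrays. This left 24525 probe sets, and 12260 genes with each gene read from its brightest probe set. Array medians of the 6 basal arrays ran from 5.76 to 5.8. Across genes, which are not independent replicates, pairs of WT arrays correlated with r of 0.983 to 0.987, pairs of KO arrays with 0.986 to 0.988, and a WT with a KO array with 0.979 to 0.989. Names of the array files place basal KO 3 on a different day from the other 5 basal arrays, and the TAC arrays in a much later run. The number of arrays limits the precision.

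Hspb8 encodes a small heat shock protein of heart and skeletal muscle. Small heat shock proteins bind unfolding proteins and keep them from aggregating without using ATP. Hspb8 is known as the partner of the cochaperone Bag3, with which it passes damaged proteins of the sarcomere to Hsp70 and on to autophagy. In the heart it has been studied for its ties to survival and growth signalling, to nitric oxide synthases, to mitochondrial respiration and to the transcription factor Stat3.

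Hspb8 itself separated the genotypes on every one of its 3 probe sets. On 1417013_at the WT arrays read 11.29, 11.75 and 11.99 and the KO arrays 5.13, 4.97 and 4.40. On 1417014_at the WT arrays read 10.89, 11.28 and 11.64 and the KO arrays 5.69, 5.92 and 5.77. The KO arrays thus lay at or below about the median of the whole table, where the array hardly resolves levels. The differences are therefore lower bounds on the loss of the sequence that these probe sets read. The first fell by 6.84 on the log2 scale (SE 0.30) and the second by 5.48 (SE 0.25), both with an adjusted p of 5.97e-08 by limma over all probe sets. On the last, 1456434_x_at, the WT arrays read 9.66, 9.67 and 10.01 and the KO arrays 8.42, 8.83 and 8.84, a difference of log2 -1.08 (SE 0.18, adjusted p = 0.196). The suffix of this probe set marks probes that may cross-hybridise, and it kept a high reading in KO. Whether that reading comes from other transcripts or from remaining Hspb8 RNA was not tested. This probe set has the highest mean of the 3 and therefore stood for Hspb8 in the test per gene, where Hspb8 did not pass (adjusted p = 0.208).

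Hspb8 lies on the minus strand of chromosome 5, at 116408491 to 116422864 in GRCm38.p6. Its promoter is shown because it is the sequence by which the missing gene is normally switched on, and because the heat shock family is known for control through heat shock elements, repeats of GAA in alternating orientation. The 250 bases before the start and the first 10 bases of the gene, at chr5:116422855-116423114 on the minus strand as given by RefSeq, read as follows, with a match to GAANNTTC in capitals.
Hspb8 promoter: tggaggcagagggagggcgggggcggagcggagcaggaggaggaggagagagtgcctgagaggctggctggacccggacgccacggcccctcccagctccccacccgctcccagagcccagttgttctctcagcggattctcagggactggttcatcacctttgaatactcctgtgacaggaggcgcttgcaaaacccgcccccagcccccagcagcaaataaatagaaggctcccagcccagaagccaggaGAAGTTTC
The match spans bases 3 to 10 after the start. On either strand, GAANNTTC was found in 5.77% of 12659 promoter windows of 300 bases, which belonged to 9861 of the 12260 genes tested. Another pair of motifs has the spacing of the site bound by STAT factors: TTCNNNGAA was in 6.67% of the windows, and TTCCNGGAA, a narrower form contained in it, in 1.17%. Neither was in the Hspb8 window. These are matches of letters in a window, not known binding sites.

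**Figure D1:**
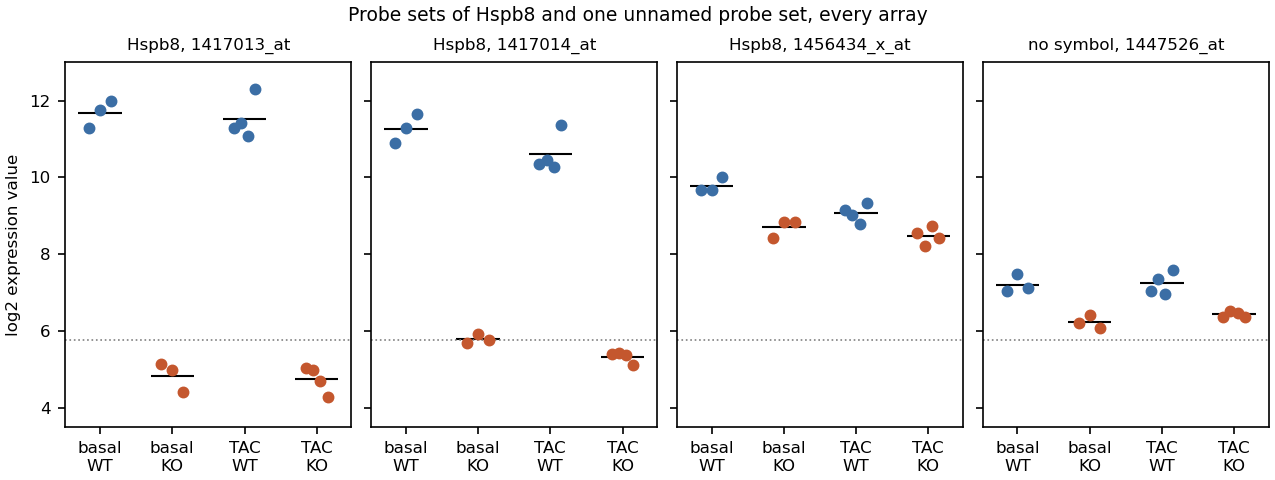
log2 expression values of the 3 probe sets of Hspb8 and of the unnamed probe set 1447526_at in all 14 arrays, in groups of basal WT, basal KO, TAC WT and TAC KO. Points are arrays, short lines are group means and the dotted line is the filter at 5.75; on 1417013_at and 1417014_at every KO array sits at 5.92 or below and every WT array at 10.26 or above.

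Beyond Hspb8, the basal comparison passed no gene. Of 12260 genes, 0 (0%) had an adjusted p under 0.05 by limma, and the smallest adjusted p was 0.208. At an unadjusted p under 0.05 there were 707 genes (5.77%), 412 higher (3.36%) and 295 lower (2.41%) in KO. Of 24525 probe sets, 2 (0.00815%) passed, both of them Hspb8 and both lower in KO, and 1397 (5.7%) had an unadjusted p under 0.05. The 3 WT and the 3 KO arrays did not overlap for 1666 genes (13.6%), 915 higher in KO (7.46%) and 751 lower (6.13%). Arrays in random order, 3 against 3, would fail to overlap for a share of 0.1. Without basal KO 3, again 0 genes passed, and 3 probe sets did, the 2 of Hspb8 and the unnamed 1443905_at.

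The comparison was precise enough to bound most genes. The median SE of a difference was 0.158 and the median half-width of its 95% confidence interval was log2 0.339, a 1.27-fold change. These SE and intervals pool the spread within all groups, TAC arrays included, so they do not describe basal arrays alone. The interval lay within a 2-fold change in both directions for 11423 genes (93.2%) and within a 1.5-fold change for 8406 (68.6%). Differences ran from log2 -0.293 at the 5th percentile to 0.343 at the 95th, around a median of 0.0133. Of the 12260 genes, 6540 lay above 0 and 5693 below. Only 26 genes differed by 2-fold or more, 13 in each direction, and 195 by 1.5-fold or more. None of these passed, and the Hspb8 gene was among the 26.

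**Figure D2:**
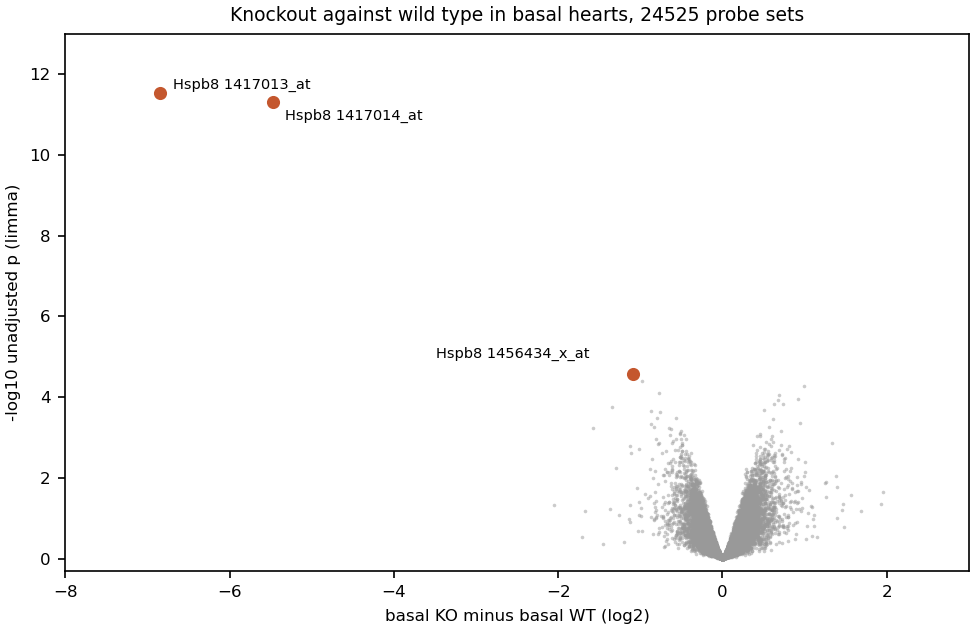
Difference between basal KO and basal WT (log2, horizontal) against -log10 of the unadjusted p by limma (vertical) for 24525 probe sets, one grey point each, with the probe sets of Hspb8 in orange. The 2 Hspb8 probe sets that passed lie far to the left at log2 -6.84 and -5.48, and the third, at log2 -1.08, lies at the upper edge of all the others.

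The genes nearest to passing are described here, with none of them called. They were chosen for small p in these same arrays, so a lack of overlap follows largely from the choice. Among those higher in KO, Nppb encodes the B-type natriuretic peptide, a hormone of stretched cardiomyocytes and a standard marker of ventricular load. It read 12.45, 12.25 and 12.25 in WT and 13.03, 12.76 and 12.99 in KO, a difference of log2 0.61 (SE 0.14, 95% interval 0.30 to 0.92, adjusted p = 0.512). Every KO array was above every WT array. Acta1, the skeletal actin that belongs to the fetal gene program, read 13.03, 11.22 and 12.58 in WT and 13.59, 13.93 and 13.30 in KO, a difference of log2 1.33 (SE 0.34, adjusted p = 0.608). The groups did not overlap, but WT 2 lay well below the other WT arrays, and without it the difference was log2 0.80. Mfap4, a glycoprotein of elastic microfibrils, read 8.21, 8.10 and 8.03 in WT and 9.11, 8.84 and 8.82 in KO (log2 0.81, SE 0.21, adjusted p = 0.608).

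The smallest p among genes higher in KO belonged to Trim65, a ubiquitin ligase of the tripartite motif family. It read 5.48, 5.59 and 5.37 in WT and 6.23, 6.20 and 6.07 in KO (log2 0.69, SE 0.12, adjusted p = 0.223). Its WT arrays were all below the filter, where the array hardly resolves levels, so the size of its 1.61-fold difference is uncertain. The same holds for Lrp11, a membrane protein related to the LDL receptor (log2 0.93). Fam181a read 5.25, 5.38 and 5.54 in WT and 5.95, 5.94 and 5.99 in KO, and passed the filter only through these KO arrays, so that its place among the 12 follows in part from the filter. Tm7sf3, a membrane protein, read 6.77, 7.13 and 6.74 in WT and 7.62, 7.59 and 7.46 in KO (log2 0.68, SE 0.12, adjusted p = 0.223). The rest of the 12 were Mtx3, a metaxin of the mitochondrial outer membrane (log2 0.74), the Nemo-like kinase Nlk (0.62), the ubiquitin ligase adaptor Klhl20 (0.46), Ankrd16 (0.46) and Ssh1, the phosphatase that activates the actin-severing protein cofilin (0.71).

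Among genes lower in KO other than Hspb8, Slc25a33 had the smallest p. It encodes a carrier that brings pyrimidine nucleotides into mitochondria. It read 9.65, 10.26 and 10.26 in WT and 9.09, 8.86 and 8.84 in KO, a difference of log2 -1.13 (SE 0.19, 95% interval -1.53 to -0.73, adjusted p = 0.208). Without basal WT 1 its probe set passed, at log2 -1.33 with an adjusted p of 0.0376 by limma. Cebpd, a transcription factor of the acute phase response, read 10.77, 11.37 and 11.37 in WT and 10.02, 9.96 and 9.49 in KO (log2 -1.35, SE 0.27, adjusted p = 0.295). Its other probe set differed by log2 -0.19. Bmp4, a growth factor of the TGF-beta superfamily, read 8.02, 8.12 and 7.60 in WT and 6.58, 7.12 and 7.42 in KO (log2 -0.87, SE 0.19, adjusted p = 0.459), with KO 3 only just below the lowest WT array.

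The remaining lower genes included Adpgk, an ADP-dependent glucokinase (log2 -0.78, and -0.35 on its other probe set). All its KO arrays were under the filter, so the size of its difference is uncertain. Others were Nsmce1, a subunit of the SMC5/6 DNA repair complex (-0.76), Shisal1 (-0.79), the chromatin reader Yeats2 (-0.65) and Tinagl1, a basement membrane protein (-0.62). Akap4, an anchor of protein kinase A best known from sperm (-0.52), Wt1, a transcription factor of the epicardium (-0.64), and Gadd45b, a stress-induced gene (-0.57), were also lower. The apolipoprotein Apon read 5.95, 6.07 and 5.81 in WT and 5.49, 5.66 and 5.35 in KO, and passed the filter only through the WT arrays. Of these 24 genes, 10 had other kept probe sets, 13 in all. The other probe sets had the same sign in 11 of the 13 but a smaller difference in 12 of the 13, and 2 had an unadjusted p under 0.05. The differences of Tm7sf3, Shisal1 and Ssh1 were not shared by their other probe sets, which lay between log2 0.00 and 0.15. Nor were those of Nlk, at log2 0.19 and -0.13 on its other probe sets, and of Yeats2, at -0.09.

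**Figure D3:**
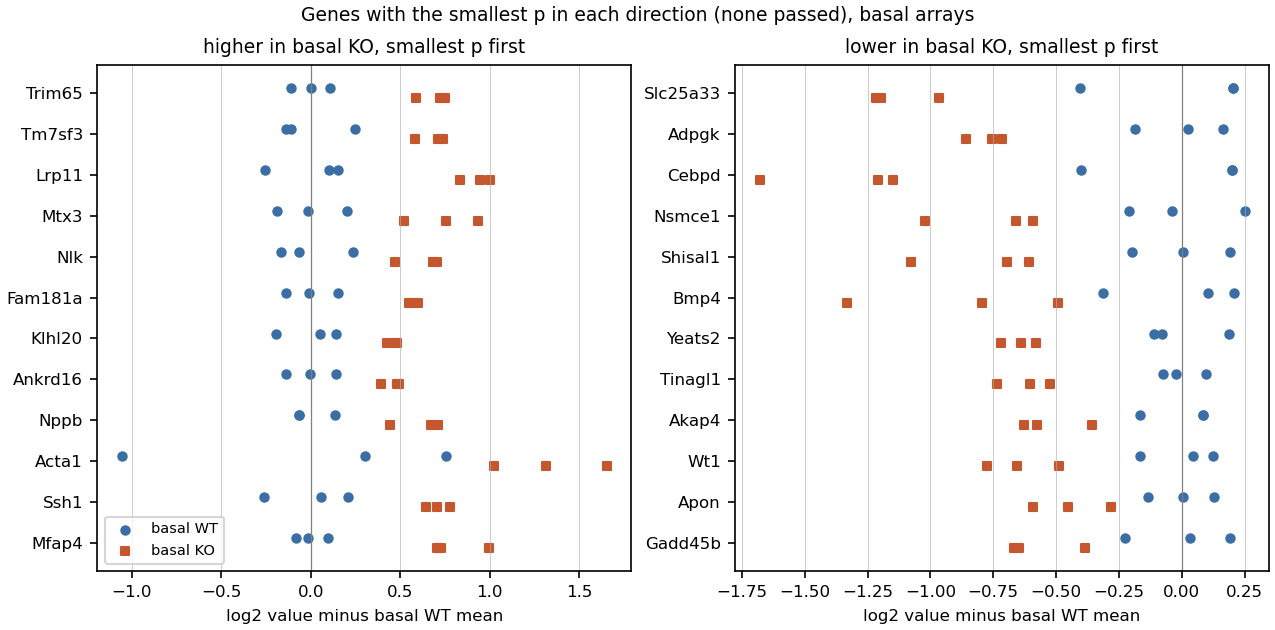
The 12 genes other than Hspb8 with the smallest p in each direction. Values are the log2 value of each basal array minus the mean of the 3 WT arrays (horizontal), WT as blue circles and KO as orange squares. The arrays of the genotypes do not overlap for any of the 24 genes, beside 13.6% of all genes tested. The genes were chosen for small p in these same arrays, so the lack of overlap follows largely from that choice. None of them passed at an adjusted p under 0.05. WT 2 stands apart for Acta1.

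Probe sets were also tested on their own, which adds those with no gene symbol and second probe sets of a gene. The unnamed 1447526_at read 7.03, 7.47 and 7.12 in WT and 6.21, 6.40 and 6.08 in KO (log2 -0.98, SE 0.16, adjusted p = 0.196). Another unnamed one, 1440586_at, read 4.77, 4.27 and 4.67 in WT and 5.71, 5.59 and 5.38 in KO (adjusted p = 0.216). All 6 basal arrays were under the filter, which it passed through TAC arrays, so no size is given. Further probe sets higher in KO belonged to Ska2, a kinetochore protein (log2 0.63), the nucleolar protein Nol7 (0.51), Casp12, a caspase of the endoplasmic reticulum (0.94), the calcium pump of the Golgi Atp2c1 (0.71), the RNA-binding protein Caprin1 (0.42), Zfp871 (0.60) and Sephs2, an enzyme of selenoprotein synthesis (0.53). Lower ones belonged to the serpin Serpini1 (log2 -0.87), Perm1, a regulator of muscle mitochondria (-0.50), the tyrosine phosphatase Ptpn1 (-0.51) and the platelet receptor Pear1 (-0.47). The unnamed 1425965_at (-0.83) and Wdfy1, an endosomal adaptor (-1.58), were also lower. All KO arrays of Wdfy1 were under the filter, so the size of its difference is uncertain. Fgfr3, a growth factor receptor, read 5.77, 5.82 and 5.95 in WT and 5.29, 5.14 and 5.40 in KO, and passed the filter only through the WT arrays. None of these passed the test.

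No known partner of Hspb8 passed. Its direct partner Bag3 read 11.85, 11.78 and 11.74 in WT and 11.80, 11.69 and 12.07 in KO (log2 0.06, 95% interval -0.29 to 0.41). Of 8 other small heat shock proteins measured, 0 passed and their median difference was log2 0.04, beside 0.013 over all genes tested. Hspb1 (Hsp27) differed by log2 0.19 (95% interval -0.21 to 0.59), Cryab (alpha B-crystallin) by 0.01 (-0.25 to 0.28) and Hspb6 (Hsp20) by 0.17. Hspb6 alone of the 8 had KO arrays that did not overlap with WT, at 13.63, 13.77 and 13.67 against 13.51, 13.48 and 13.58, beside 13.6% of all genes tested. In the list of the Bag3 complex and chaperone-assisted autophagy, 0 of 20 genes passed, the median was log2 0.102, and 14 lay above 0 and 6 below. Single differences ran from log2 -0.19 to 1.48, the highest being that of Hspa1a, the inducible Hsp70 gene. Hspa1a read 8.39, 6.91 and 7.73 in WT and 10.27, 6.48 and 10.72 in KO (SE 1.03, adjusted p = 0.998), with KO 1 and KO 3 high and KO 2 lowest of all. Stub1, the ubiquitin ligase of that pathway, differed by log2 -0.12.

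Chaperones induced by heat shock factor lay mostly above 0 without passing. Of 17 genes measured, 16 were above 0 and 1 below, beside 6540 of 12260 above 0 over all genes tested. Of the 17, 5 had an unadjusted p under 0.05 (all higher, beside 3.36% of all genes tested). The median was log2 0.217 and 0 passed. Hsph1, an Hsp70 nucleotide exchange factor, read 10.14, 9.63 and 10.08 in WT and 11.00, 10.27 and 11.29 in KO (log2 0.90, adjusted p = 0.745). Dnajb1, the main inducible Hsp40, read 9.42, 8.63 and 9.66 in WT and 11.03, 9.51 and 10.91 in KO (log2 1.25, adjusted p = 0.801). In both, KO 1 and KO 3 were high and KO 2 was near WT. Hspa1a, which is not in this list, split in the same way. The mean of the list read 10.46 to 10.76 in WT, and 11.03, 10.69 and 11.21 in KO, so KO 2 lay within the WT range. The median of the list was log2 0.127 without either KO 3 or WT 2, and 0.322 without KO 2.

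Genes of the unfolded protein response had a median of log2 0.177, with 19 of 25 above 0 and 0 passing. That median was 0.0583 without KO 3 and 0.095 without WT 2. Chac1, a glutathione-degrading enzyme downstream of Atf4, went the other way, at 8.27, 8.74 and 8.05 in WT and 7.51, 7.58 and 7.33 in KO (log2 -0.88, adjusted p = 0.831). The proteasome (31 genes, median log2 0.05) and autophagy and lysosome genes (25 genes, median 0.003) had no member that passed. Within the latter, Gabarapl1, a protein of the autophagosome membrane, differed by log2 -0.34 (adjusted p = 0.821).

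Stat3 and the nitric oxide synthases were measured because Hspb8 has been tied to both. Stat3 read 10.63, 11.12 and 11.06 in WT and 11.13, 11.13 and 11.07 in KO (log2 0.17, 95% interval -0.12 to 0.47, adjusted p = 0.998). Its other probe sets differed by log2 0.047, -0.023 and -0.12, so they did not share a direction. Among 31 genes of the Stat3 pathway and its targets, 0 passed, 21 lay below 0 and 10 above, and the median was log2 -0.107. The KO arrays lay below all WT arrays for 7 of the 31, beside 6.13% of all genes tested, and above them for 1. Besides Cebpd, these included Socs2, a cytokine signalling inhibitor (log2 -0.39), the transcription factor Cebpb (-0.30), the leukaemia inhibitory factor receptor Lifr (-0.45) and Cish, another inhibitor of the Socs family (-0.40). Their adjusted p-values lay between 0.295 and 0.936. Junb, another target, read 6.82, 8.69 and 7.99 in WT and 7.22, 6.67 and 7.23 in KO, with WT 2 and WT 3 high and WT 1 among the KO arrays. The median of the list was log2 -0.207 without WT 1 and -0.177 without KO 3.

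Nos3, the endothelial nitric oxide synthase, read 9.16, 9.47 and 9.33 in WT and 9.13, 8.99 and 9.13 in KO (log2 -0.24, 95% interval -0.51 to 0.03, adjusted p = 0.894). The KO arrays lay just below the lowest WT array. Nos1, the neuronal form, whose gene lies within 5 Mb of Hspb8, differed by log2 -0.20 with no overlap. Nos2, the inducible form, was below the filter in every basal array, between 4.89 and 5.60. Over 15 genes of nitric oxide and cyclic GMP signalling 0 passed, and the median was log2 0.013 with all arrays and -0.105 without WT 2.

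In the hypertrophy and fetal gene program, 4 of 23 genes had an unadjusted p under 0.05, all higher in KO, beside 3.36% of all genes tested, and 0 passed. Beyond Nppb and Acta1 these were the transcription factor Mef2c (log2 0.32) and Edn1, the vasoconstrictor endothelin-1 (0.37). The median of the list, log2 0.053, was close to that of all genes. Nppa, the atrial natriuretic peptide, read 13.40, 13.80 and 13.67 in WT and 13.47, 12.65 and 14.04 in KO (log2 -0.24, adjusted p = 0.998) and turned to log2 0.13 without KO 2. The myosin heavy chains Myh6 and Myh7 each differed by log2 0.02, with a 95% interval of -0.23 to 0.27 for Myh6 and of -1.33 to 1.37 for the more variable Myh7. Adult contractile and calcium handling genes had a median of log2 0.002 over 26 genes, and markers of ventricular cardiomyocytes one of -0.02 over 9, with 0 passing in both.

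Most genes of energy metabolism were bounded within a 2-fold change, as were 93.2% of all genes tested. For all 54 nuclear genes of oxidative phosphorylation the 95% interval lay within a 2-fold change, and single differences ran only from log2 -0.19 to 0.06 around a median of -0.033. The same bound held for all 18 genes of the TCA cycle and pyruvate entry (median log2 -0.017), for 25 of 29 of fatty acid oxidation (-0.053) and for 20 of 21 of glucose uptake and glycolysis (0.053). No member of these lists passed. The widest difference among them was that of Ppargc1a, the coactivator of mitochondrial biogenesis, at 11.50, 12.50 and 11.82 in WT and 10.98, 10.73 and 11.68 in KO (log2 -0.81, SE 0.46, adjusted p = 0.931), where the groups overlapped. Among 24 genes of oxidative stress defence, 0 passed. The metallothionein gene Mt2 differed by log2 -1.04 (adjusted p = 0.801) and Hmox1, the haem oxygenase, by -1.26 (adjusted p = 0.905). For Hmox1 the KO arrays read 6.98, 6.87 and 7.59, below WT arrays of 7.75, 8.87 and 8.59.

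Matrix genes and macrophage markers lay mostly above 0, again with 0 passing. Of 33 matrix and fibrosis genes, 30 lay above 0, beside 6540 of 12260 over all genes tested, and the median was log2 0.337. Of the 33, 6 had an unadjusted p under 0.05 (all higher, beside 3.36% of all genes tested). The KO arrays lay above all WT arrays for 10 of the 33, beside 7.46% of all genes tested. Col3a1, a fibrillar collagen, read 11.09, 9.89 and 11.49 in WT and 11.80, 12.10 and 11.62 in KO (log2 1.02, SE 0.38, adjusted p = 0.801). Col1a1, the main fibrillar collagen, read 9.27, 8.20 and 9.68 in WT and 10.04, 10.24 and 9.74 in KO (log2 0.96). Both had WT 2 lowest. Col6a1, of the microfibrillar collagen around cells, differed by log2 0.59 and Loxl1, a collagen and elastin crosslinking enzyme, by 0.69. Thbs1, a matricellular protein, was the main exception, at log2 -1.14 with WT 2 highest. Without WT 2 the median of the list was log2 0.242 and without WT 3 it was 0.43.

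Of 12 macrophage markers, 11 lay above 0, beside 6540 of 12260 over all genes tested, and the median was log2 0.488. The KO arrays lay above all WT arrays for 6 of the 12, beside 7.46% of all genes tested. They lay below all WT arrays for 1, beside 6.13%. Csf1r, the receptor that macrophages need to survive, read 10.70, 9.97 and 10.67 in WT and 11.21, 11.03 and 10.88 in KO (log2 0.59, adjusted p = 0.931). Cd68, a lysosomal marker, read 6.98, 6.79 and 6.85 in WT and 7.47, 7.44 and 7.42 in KO (log2 0.57, adjusted p = 0.992). The KO arrays did not overlap with WT in either. Cd14, the coreceptor for lipopolysaccharide, lay the other way, at 8.40, 9.86 and 8.59 in WT and 8.0, 8.0 and 8.04 in KO (log2 -0.94, adjusted p = 0.821). The mean of the list read 8.57, 8.27 and 8.46 in WT and 8.80, 8.84 and 8.73 in KO. In TAC WT arrays it ran from 9.04 to 10.77, and that spread enters the p-values given here. Fibroblast markers (10 genes) had a median of log2 0.153, endothelial markers (11) 0.13 and smooth muscle and pericyte markers (10) 0.078. On leaving out single basal arrays these ran from 0.065 to 0.234, from 0.025 to 0.163 and from -0.0067 to 0.112. In these bulk samples, more cells of a type and more RNA per cell cannot be told apart, and the part of these markers in the matrix differences was not tested.

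Interferon response genes and MHC genes also lay mostly above 0, with none passing. Of 23 interferon response genes, 21 were above 0, beside 6540 of 12260 over all genes tested. Their median was log2 0.267 and 0 passed. Igtp, an interferon-induced GTPase, read 8.26, 8.07 and 8.07 in WT and 10.41, 8.35 and 8.73 in KO (log2 1.03, adjusted p = 0.992), with KO 1 far above the rest. The mean of the list in WT was 7.10 to 7.36, and in KO it was 7.72, 7.34 and 7.57. All 9 MHC class I and II genes measured were above 0 with a median of log2 0.423. That median was 0.198 without KO 1 and 0.175 without WT 2. B2m, the light chain of MHC class I, read 12.41, 11.98 and 12.26 in WT and 13.10, 12.15 and 12.86 in KO (log2 0.49).

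Markers of ventricular muscle were high and even across arrays, while those of atrial muscle were not even. The mean of ventricular cardiomyocyte markers read 13.43 to 13.55 in all 6 basal arrays. Atrial cardiomyocyte markers were well above the filter in most arrays, with a list mean of 10.05, 10.20 and 10.31 in WT and of 9.45, 8.24 and 10.67 in KO. Sln, the atrial regulator of the calcium pump, read 11.50, 11.86 and 11.95 in WT and 10.44, 7.13 and 12.60 in KO (log2 -1.71, SE 1.57, adjusted p = 0.998). KO 2 was lowest and KO 3 highest for Sln and equally for the atrial myosin light chains Myl4 and Myl7. The median of the 9 atrial markers was log2 -0.553, and it was -0.142 without KO 2 and -1.28 without KO 3. Adipoq, an adipocyte hormone, differed by log2 1.05 (adjusted p = 0.885). Xist, transcribed from the inactive X of females, read 5.92 to 6.61, and the Y-linked Eif2s3y 8.68 to 8.93, in these arrays of males.

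Of 17 circadian clock genes, 4 lay above 0 and 13 below, and 0 passed. Arntl (Bmal1), the activating factor, read 8.03, 7.69 and 8.39 in WT and 8.63, 8.58 and 8.52 in KO (log2 0.54, adjusted p = 0.801). Its partners Clock and Npas2 differed by log2 0.52 and 0.79. Dbp, an output factor driven by Arntl, read 8.17, 8.11 and 7.93 in WT and 6.62, 7.39 and 7.21 in KO (log2 -1.0, adjusted p = 0.861). Nr1d2, a repressor of Arntl, differed by log2 -0.65, Per1 by -0.33, Per3 by -0.50 and Ciart by -0.50. The KO arrays lay above all WT arrays for 2 of the 17, beside 7.46% of all genes tested, and below them for 5, beside 6.13%. The median of the list, log2 -0.193, was -0.0967 without WT 1, -0.295 without WT 3 and -0.33 without KO 3.

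Genes of immediate early response and of growth signalling split both ways. Of 25 immediate early genes, 10 lay above 0 and 15 below, 0 passed and the median was log2 -0.11. That median had no stable sign, at 0.103 without KO 2 and -0.248 without KO 3. Jun, a subunit of the AP-1 transcription factor, differed by log2 0.88 and the nuclear receptor Nr4a2 by 0.31, while Gadd45b differed by -0.57. Of 35 genes of AKT, AMPK and growth signalling, 18 lay above 0 and 17 below, 0 passed and the median was log2 0.033, between -0.01 and 0.078 over the alternatives tried. Beyond Bmp4, Eif4ebp1, a repressor of translation held off by mTOR, differed by log2 -0.57, and Smad5, which carries BMP signals, by 0.30.

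**Figure D4:**
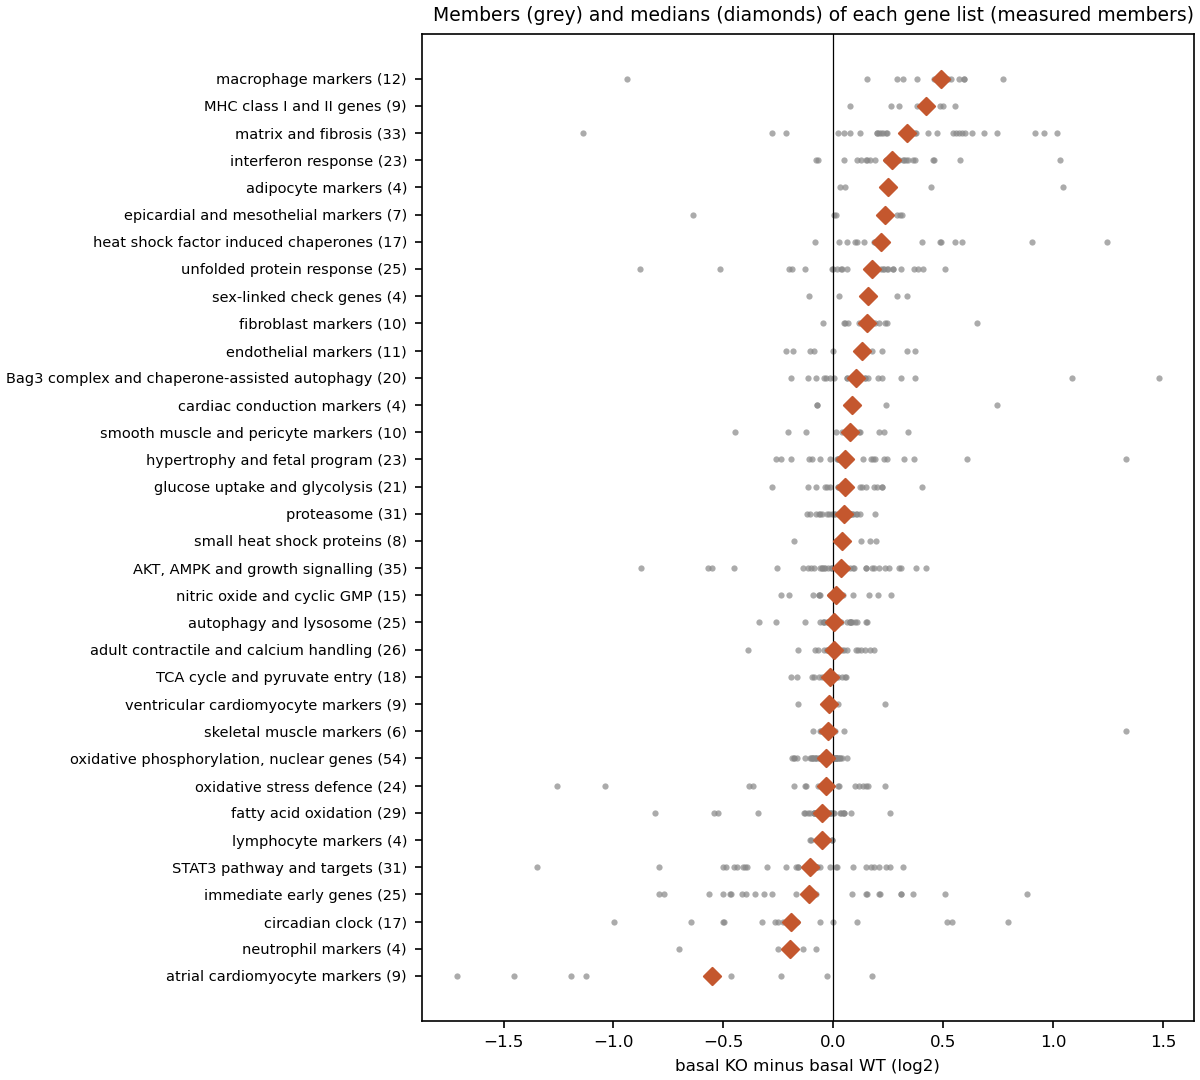
Difference between basal KO and basal WT (log2, horizontal) for every measured member of each gene list (grey points) and the median of the list (orange diamonds), for lists with at least 4 measured members, whose number stands in brackets. Medians run from log2 -0.553 for atrial markers to 0.488 for macrophage markers, beside 0.013 over all genes, and no member passed.

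The neighbours of Hspb8 on chromosome 5 were looked at because DNA flanking a targeted gene is inherited with it. None of the 312 other genes within 20 Mb passed. The next gene measured, Srrm4, differed by log2 0.01. Its lower coordinate lies 31 kb from that of Hspb8, and all distances here are taken between lower coordinates. Windows of 5 and 20 Mb were set in advance, and one of 1 Mb, with few genes, was not. Within 1 Mb, 4 of 16 genes (25%) had an unadjusted p under 0.05, beside 5.77% of all genes. The arrays of the genotypes did not overlap for 7 of the 16 (43.8%), beside 13.6%. These included the mitochondrial sirtuin Sirt4, at 7.98, 7.87 and 7.73 in WT and 8.28, 8.21 and 8.17 in KO (log2 0.36). The ribosomal protein gene Rplp0 read 13.18, 13.25 and 13.29 in WT and 12.77, 12.89 and 12.98 in KO (log2 -0.36). Prkab1, a subunit of AMP-activated kinase, differed by log2 0.42. The probe sets of Pebp1, an inhibitor of Raf, disagreed. The one that stood for the gene, 1438649_x_at, was higher in KO by log2 0.23, while 1415950_a_at read 12.50, 12.53 and 12.62 in WT and 12.45, 12.37 and 12.34 in KO (log2 -0.16, adjusted p = 0.991), so the direction for Pebp1 is not settled.

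The shares were lower in wider windows, which contain the narrower ones and so are not separate observations. Within 5 Mb, 10.2% of 98 genes had an unadjusted p under 0.05 and 23.5% did not overlap, and within 20 Mb these shares were 8.01% and 19.9% of 312 genes. On the rest of chromosome 5 they were 5.74% and 10.4% of 470 genes, and on other chromosomes 5.7% and 13.5% of 11477 genes. The median size of a difference was log2 0.157 within 1 Mb and 0.113 on other chromosomes. After TAC it was 0.088 within 1 Mb and 0.115 elsewhere. Sirt4 then differed by log2 0.11, Rplp0 by -0.02 and Prkab1 by 0.08. Ssh1 and Nos1, named above, also lie within 5 Mb of Hspb8 and differed by log2 0.09 and 0.195 after TAC. Pebp1 differed by -0.02 on 1438649_x_at and by -0.68 on 1415950_a_at (adjusted p = 0.128), where the arrays did not overlap in either condition, with KO lower in both. Of the 312 genes, each read from its brightest probe set, Sh2b3, an adaptor of cytokine signalling, alone did not overlap in the same direction in both conditions (log2 -0.29 and -0.27).

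**Figure D5:**
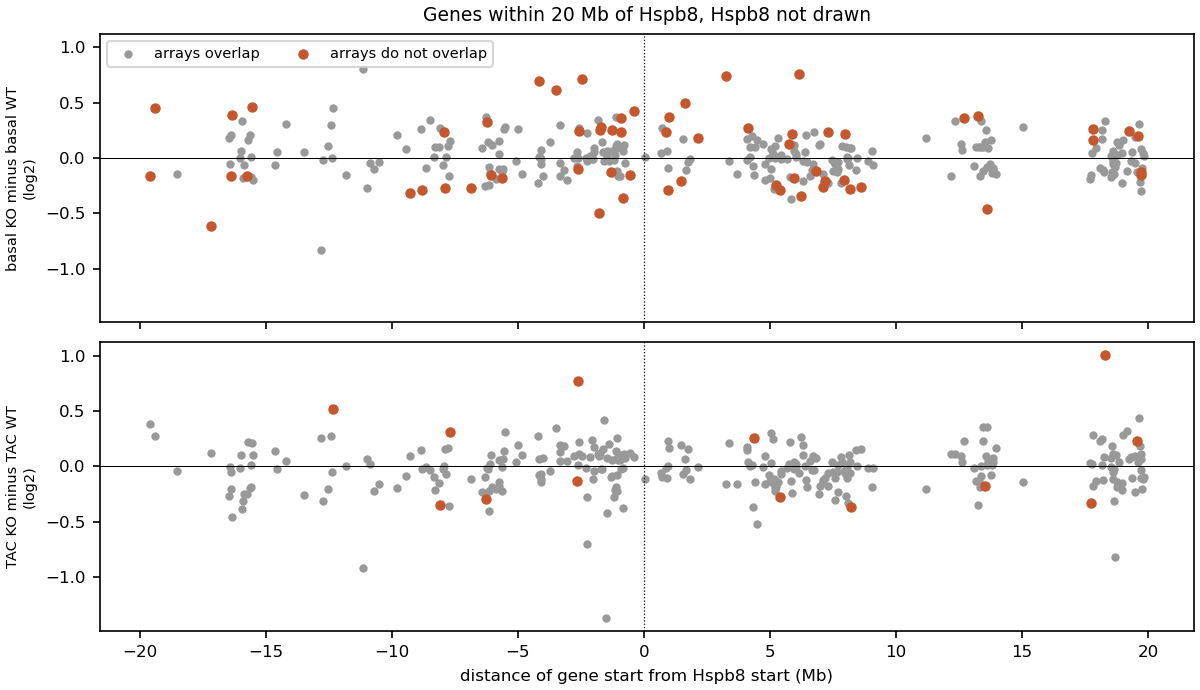
Difference between KO and WT (log2, vertical) of the 312 genes within 20 Mb of Hspb8 by the distance of their start (lower coordinate) from that of Hspb8 (Mb, horizontal), in basal arrays (top) and after TAC (bottom), with genes whose arrays do not overlap in orange. Each gene is read from its brightest probe set; near Hspb8 several genes are orange in basal arrays, 7 of 16 within 1 Mb, and none of these is orange after TAC.

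The same contrast after TAC rested on 8 other arrays. These enter the basal comparison through the shared estimate of spread, the filter and the choice of the brightest probe set. After TAC, 1 gene (0.00816%) and 7 probe sets (0.0285%) passed, 2 of them again those of Hspb8. The arrays did not overlap for 489 genes (3.99%). Of the 915 genes that did not overlap and were higher in basal KO, 14 (1.53%) did so in the same direction after TAC, beside 1.69% of all genes, and 20 (2.19%) in the opposite one, beside 2.3%. Of the 751 lower ones, 11 (1.46%) did so in the same direction, beside 2.3% of all genes, and 15 (2%) in the opposite one, beside 1.69%. Those shares were near the background. The difference of the KO effects between TAC and basal hearts passed for 0 genes by limma, with a smallest adjusted p of 0.464 and 952 genes (7.77%) at an unadjusted p under 0.05.

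Some of the genes named above went the opposite way after TAC, some showed little and some differed alike. Nlk differed by log2 0.62 in basal hearts and by -0.285 after TAC, and Nol7 by 0.51 and -0.41. Sephs2 differed by 0.53 and -0.36 and Caprin1 by 0.42 and -0.18. For each of these the arrays did not overlap in either condition, and the difference between conditions did not pass. Nppb differed by log2 0.61 in basal hearts and by 0.00 after TAC, Acta1 by 1.33 and -0.15, Slc25a33 by -1.13 and -0.20 (adjusted p of the difference 0.464 by limma), and Cebpd by -1.35 and -0.23. Mfap4 differed alike in both, by log2 0.81 and 1.02 (adjusted p = 0.106 after TAC). The matrix list had a median of log2 0.337 in basal hearts and 0.488 after TAC, and macrophage markers 0.488 and 0.422. The interferon response list had medians of log2 0.267 and -0.828, and the heat shock factor list 0.217 and -0.285. None of these list differences was tested.

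Over all 14 arrays, 9 of 24525 probe sets separated the 7 WT from the 7 KO arrays without overlap, 4 lower in KO and 5 higher. How many would do so by chance was not computed, so this count is not read as an excess. Besides the 2 of Hspb8, the widest gap was that of the unnamed 1447526_at, at 6.97 to 7.58 in WT and 6.08 to 6.53 in KO (log2 -0.98 in basal hearts and -0.80 after TAC, adjusted p = 0.0901 after TAC). Mfap4 came next, at 8.03 to 8.68 in WT and 8.82 to 9.83 in KO. The others were Gpc6, a cell surface proteoglycan (log2 0.41 and 0.67), and Serpinf1, the secreted factor PEDF (0.30 and 0.69). Inpp5e, an inositol phosphatase (-0.18 and -0.14), and the unnamed 1445758_at and 1433278_at completed the set. For these others the gap between the genotypes was only log2 0.01 to 0.07. Genes of the test per gene that did not overlap in the same direction in both conditions numbered 25, 14 higher in KO and 11 lower. They made up 1.53% and 1.46% of the genes not overlapping in basal arrays. Over all genes after TAC the shares were 1.69% and 2.3%, so this number is not above background. The higher ones included the Wnt antagonists Sfrp1 (log2 0.77 and 0.93) and Frzb (0.50 and 0.56) and the cadherin Cdh11 of fibroblasts (0.58 and 0.74). Col6a1 (0.59 and 0.66), Col18a1 (0.34 and 0.75) and Vwf, the von Willebrand factor of endothelium (0.37 and 0.64), were also among them. So were Entpd2 (0.25 and 0.67), Gab2 (0.26 and 0.335) and Dctn1 (0.11 and 0.125). The lower ones included Hspb8 (log2 -1.08 and -0.595), Sh2b3 (-0.29 and -0.27), Nme6 (-0.31 and -0.145) and Csnk1e (-0.24 and -0.16).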

How the data were processed

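Groups were read from sample titles. The authors deposited log2 values made with RMA, per the submitters' processing notes. The sources used here do not give its version or say whether the 14 arrays were processed in one run. Of 45101 probe sets, 64 were controls. Platform annotation gave 34958 probe sets 1 symbol, 932 several and 9211 none; 34754 symbols matched RefSeq genes of GRCm38.p6 by gene number and 203 did not match. The kept probe set of highest mean stood for a gene.

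In R 4.3.3, limma 3.58.1 fitted the 4 groups over all 14 arrays (10 residual degrees of freedom, 3.43 prior ones for genes), with eBayes and Benjamini-Hochberg adjustment over all features, tested on simulated data. Adjusted p-values come from it, as do SE and 95% intervals. With 3 against 3 arrays, an exact permutation test cannot go below 0.1.

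Named were Hspb8, 10 preset genes, the 12 genes and 8 further probe sets of smallest p per direction, and up to 4 members per list. Other genes, including those near Hspb8, those with values in both conditions and further list members, were chosen after their values were seen. Members and lists were chosen with earlier results of these data known. Same-numbered basal arrays did not deviate together (r of -0.026, 0.073 and -0.009). Of the TAC pairs some did and some did not (-0.072 to 0.594). These values cannot settle whether numbers pair samples, and the main fit did not pair them. Alternatives covered filters, probe set choice, normalization, arrays in the fit, eBayes settings, array weights, a fold of at least 1.5, a replicate block and leaving out each array.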

Additional observations from a re-analysis of the deposited data

Results flagged for a closer look

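In groups of 4 arrays, a value was singled out when its gap to the nearest other array took up most of the range of the group. Groups of 3, the basal ones among them, are not tested in this way. Over 51 features and 102 groups, 5 values were singled out, and chance flags about 1 in 20 groups. All lie in TAC arrays, which enter the spread used for the basal comparison. Trim65 read 5.46 in TAC WT 4 against 5.83 to 5.90 in the other TAC WT arrays. Lrp11 read 6.96 in TAC WT 3 against 6.35 to 6.42. Myh7 read 10.24 in TAC WT 3 against 13.19 to 13.28. Serpini1 read 6.28 in TAC KO 2 against 6.69 to 6.77. Wdfy1 read 5.85 on 1437358_at in TAC WT 4 against 7.32 to 7.55.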

How the results depend on the processing

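Under 26 alternatives, 14 of them leaving out an array, both Hspb8 probe sets passed wherever probe sets were tested, which was all but averaging (log2 -7.04 to -6.63 and -5.67 to -5.29). The number of genes passing in basal hearts was 1 (Hspb8) on averaging the probe sets of a gene and without probe sets of the _x_at and _s_at classes, 5 with array weights (Hspb8, Lrp11, Slc25a33, Tm7sf3 and Trim65), and 0 otherwise. Of these, 1 also passed after TAC under each of those 3 alternatives. With array weights 5 probe sets passed, and 4 without TAC WT 4, when 2 of Wdfy1 were added; leaving out arrays gave 2 to 4. With the basal arrays alone 3 passed, Wdfy1 being added. With the replicate block, 0 genes and 2 probe sets passed in basal hearts, and 0 genes after TAC in place of 1. After TAC, 5 genes passed on such averaging, 3 without those classes, 3 with quantile normalization, 2880 with array weights and 0 to 107 on leaving out arrays (107 without TAC WT 3). The difference of KO effects passed for 166 genes with array weights and 0 to 8 on leaving out arrays. The sign turned for uncalled genes near 0: on leaving out a basal array, Myh7 ran from log2 -0.19 to 0.36 (below 0 without WT 1, WT 3 or KO 1), Cryab from -0.028 to 0.042 (WT 2, KO 3), Myh6 from -0.0017 to 0.058 (WT 3), Nppa from -0.56 to 0.13 (above 0 without KO 2) and Bag3 from -0.045 to 0.145 (KO 3). The cause was not tested. List medians near 0 also turned: autophagy -0.032 to 0.053, contractile genes -0.0033 to 0.017, TCA cycle -0.047 to 0.0017.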

Other observations

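Some of the widest basal differences came from genes whose arrays split within a genotype. Stbd1, a starch-binding protein that tethers glycogen, had the lowest difference of all genes in the basal comparison, log2 -2.05 (SE 0.95, limma adjusted p = 0.86). It read 6.41, 7.21 and 7.36 in basal WT and 4.32, 4.29 and 6.22 in basal KO. After TAC it read 6.98 to 9.23 in WT, and 4.64, 8.18, 5.19 and 8.59 in KO, so that 2 KO arrays were low and 2 were within the WT range. Stbd1 lies on chromosome 5 at 92603051 to 92606579. The unnamed 1443905_at, which passed only without basal KO 3, read 6.13, 6.75 and 6.66 in basal WT and 5.01, 5.04 and 7.02 in basal KO. After TAC it read between 7.45 and 7.92 in all 8 arrays.

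Wdfy1 was low on several probe sets together. On 1437358_at it read 7.25, 7.02 and 7.10 in basal WT and 5.58, 5.37 and 5.68 in basal KO, and on 1424749_at 7.16, 6.99 and 6.66 against 5.45, 5.82 and 5.64. On 1435588_at it read 6.05, 5.48 and 5.58 against 4.58, 4.64 and 4.55. TAC WT 4 read as low as 5.85, 5.85 and 5.8 on these 3, while the other 7 TAC arrays read 6.78 or more. Another probe set, 1453426_a_at, differed by log2 -0.32 in basal hearts.

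Prune2 had the highest basal difference, log2 1.94 on 1432198_at, and it rested on 1 array. Basal WT 1 read 6.16 there and the other 5 basal arrays 10.81 to 11.56. On 1455342_at the same array was the high one, at 10.31 against 7.96 to 8.52.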
